A study of Homo sapiens with 6 samples.

Results

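The vacuolar ATPase (V-ATPase) and the cathepsins were examined in Hep3B, a cell line from a human hepatocellular carcinoma, with and without stable silencing of SDHB. A gene belonged to the set if its symbol began with ATP6V0, ATP6V1 or ATP6AP, or was CTS followed by a single letter, in the annotation of the HG-U133 Plus 2.0 array. The rule found 40 of the 19775 genes named on the array, represented by 81 probe sets. They were 23 genes of V-ATPase subunits and accessory proteins, 15 cathepsin genes and 2 non-coding genes, ATP6AP1-DT and ATP6V0E2-AS1, whose symbols share the first letters. The probe set for ATP6V1F is annotated to a second gene as well and was not named. Each gene was represented by its brightest probe set, the probe set with the highest mean log2 signal over all 6 arrays.

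Both groups were G418-resistant Hep3B transfectants grown in medium with serum and pyruvate until nearly confluent. The control, pU6-2, was clone 2 carrying the plasmid pU6, and the other, D20, was a clone carrying the plasmid siSDHB, directed against the iron-sulfur subunit of succinate dehydrogenase. Each group was a single clone with 3 arrays, labelled A, B and C, so the silencing and the clone cannot be told apart. Whether the 3 arrays of a clone stem from separate cultures is not in the labels, so a p-value here reflects array-to-array spread within each clone and that spread may be technical. SDHB itself is not analysed here, and its silencing is therefore taken from the labels.

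The V-ATPase is a rotary proton pump. Its cytosolic V1 sector hydrolyses ATP, and its membrane-embedded V0 sector carries protons into lysosomes, endosomes and the Golgi, or out of specialised cells such as osteoclasts and renal intercalated cells. Several subunits are encoded by more than 1 gene, typically a broadly expressed form and forms restricted to certain tissues or organelles. Most cathepsins are proteases made as inactive precursors, sorted to the lysosome and activated at the low pH that the pump maintains. The transcription factor TFEB and its relatives bind an E-box in many lysosomal promoters, known as the CLEAR element.

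Promoter sequences from RefSeq (GRCh38.p14) were available for 27 of the 40 genes, as 250 bases before to 50 bases after an annotated start. The full palindromic CLEAR element, the capitals of ATP6V1G1 below, lay in 0.353% of the 35116 promoters of the table and in that of 1 of the 27 members, ATP6V1G1. The shorter palindrome TCACGTGA, which the full element contains, lay in 0.98% of promoters and in those of ATP6V1G1, ATP6V0D1 and CTSA. Its neighbour form GTCACGTG, searched on both strands and also contained in the full element, lay in 2.4% of promoters and in those of 5 members, the 3 just named with ATP6V0B and CTSD. This form was not planned and was added after the promoters were searched, when earlier results of these data were known. It brought in ATP6V0B and CTSD. The bare E-box CACGTG, contained in all 3 longer forms, lay in 7.26% of promoters and in those of 7 members, these 5 with ATP6V0E2 and CTSF. The 5 with GTCACGTG are shown because they are all members that hold this form. Capitals mark 1 match a gene together with any further bases of the full element. The CTSA sequence holds a further GTCACGTG, and the ATP6V0B sequence a further CACGTG, both left in lower case. Each sequence is read 5′ to 3′ on the strand of its gene.
CTSA: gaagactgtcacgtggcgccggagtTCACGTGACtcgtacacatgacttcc
CTSD: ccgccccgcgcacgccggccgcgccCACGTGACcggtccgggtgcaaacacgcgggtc
ATP6V1G1: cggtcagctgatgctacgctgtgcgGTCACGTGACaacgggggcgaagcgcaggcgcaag
ATP6V0D1: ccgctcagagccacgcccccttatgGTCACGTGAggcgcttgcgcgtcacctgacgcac
ATP6V0B: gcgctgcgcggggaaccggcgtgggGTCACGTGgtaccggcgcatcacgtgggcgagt

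The CTSA sequence lies on the plus strand at chr20:45891284-45891334 and that of CTSD on the minus strand at chr11:1763942-1763999. Those of ATP6V1G1, ATP6V0D1 and ATP6V0B lie at chr9:114587684-114587743 (plus), chr16:67481185-67481243 (minus) and chr1:43974876-43974933 (plus). The match in capitals ended 17 bases before the annotated start in CTSA and 39 bases before it in CTSD. In ATP6V1G1, ATP6V0D1 and ATP6V0B it ended 50, 52 and 51 bases before the start. In these 5 genes the log2 fold change, D20 over control, was -0.83 for CTSA, -1.02 for CTSD, -0.25 for ATP6V1G1, -0.24 for ATP6V0D1 and -0.02 for ATP6V0B, and of these CTSA and CTSD passed the test. Of the other 2 members with CACGTG, ATP6V0E2 rose by 0.44 and passed the test, while CTSF had 0.12 and did not. ATP6V0E2 did not pass with median centring or without control replicate A. Of all genes tested 44.5% were called, so the calls among members with an E-box are not read as a result about it. A match is a description of these letters and does not show binding.

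The promoters of the 3 members with the largest rises held none of the 4 forms. These members were picked by their values. CACGTG, contained in the other forms, lay in only 7 of the 27 members and 7.26% of promoters. Its absence is therefore common and is not read as a result about the rises. The 100 bases before their starts are shown.
ATP6V1C2: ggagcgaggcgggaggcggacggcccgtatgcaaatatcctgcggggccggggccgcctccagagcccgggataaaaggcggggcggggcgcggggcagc
CTSH: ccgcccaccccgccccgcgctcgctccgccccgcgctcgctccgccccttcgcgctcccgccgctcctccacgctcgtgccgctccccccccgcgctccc
CTSV: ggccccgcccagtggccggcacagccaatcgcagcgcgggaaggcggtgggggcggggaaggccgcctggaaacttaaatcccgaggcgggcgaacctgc

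The sequence of ATP6V1C2 lies on the plus strand at chr2:10721530-10721629. Those of CTSH and CTSV lie on the minus strand at chr15:78945047-78945146 and chr9:97039143-97039242. G and C made up 76.0%, 85.0% and 73.0% of these bases.

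The arrays carried MAS5 signals, and the trimmed mean signal was 500.1 on each, with medians between 77.7 and 92.4. Ratios of the 3′ to the 5′ control probe set lay between 1.42 and 1.9 for ACTB and 1.08 and 1.15 for GAPDH in the control arrays, and between 1.4 and 1.68 and 1.11 and 1.25 in the D20 arrays. Of 13 hepatocyte markers named on the array all 13 were tested. Beside 44.5% of all genes tested, 84.6% of these markers were called, 9 lower and 2 higher in D20. Their summed signal was 354213.2 to 361927.3 on the control arrays and 165166.1 to 190089.8 on the D20 arrays. ALB, albumin, stood at 43677.7 in the control and 43934.7 in D20, and AFP fell from 20569.5 to 403.5. In RNA from whole cultures, fewer cells of a type and less RNA per cell cannot be told apart. Markers of macrophages and other leukocytes, cells rich in cathepsins, were mostly dim. The 11 on the array summed to 593.7 to 989.5 in the control and 470.7 to 582.1 in D20 and the pan-leukocyte marker PTPRC was too dim to test. Only 4 of the 11 were tested, and 1 was called. That was FCER1G, which fell from 333.0 to 109.2, a log2 fold change of -1.49. The 7 markers of osteoclasts and renal intercalated cells, which carry the pump at the cell surface, summed to 581.3 to 854.2 and 786.2 to 881.5. Only 2 of them were tested. NFATC1 rose from 420.2 to 644.3 (0.62) and was called, and SLC4A9 fell from 99.2 to 18.0 (-1.75). Every D20 array of SLC4A9 lay below 43.2, the level under which probe sets were left out as too dim. SLC4A9 thus entered the test through its control arrays alone, and its call is not read as a result. Neither NFATC1 nor SLC4A9 was called without control replicate B or without control replicate C. NFATC1 was also not called without the variance trend (0.62), without D20 replicate A (0.59) or with its probe sets averaged (0.67). Without probe sets marked _x_at or _s_at it had 0.18 and was not called. The 10 fibroblast markers summed to 1251.5 to 1419.5 and 4290.4 to 5050.6. Most of each D20 sum was the single probe set of COL1A1 used here, with 4230.5, 3670.1 and 3439.5. Of the 7 tested 1 was higher and 2 lower, with a median log2 fold change of -0.54. The share called, 42.9%, lay near the 44.5% of all genes. Among the called genes, COL1A1 entered the test through its D20 arrays alone and LUM through its control arrays alone. The counts are therefore not read as a result about these markers. COL1A1 went from 1.23 to 3780.0, LUM fell from 160.4 to 8.3 and PDGFRA from 730.9 to 484.6, while COL3A1 (20.2 and 20.3) and COL1A2 (68.5 and 84.2) were dim in both. PDGFRA was not called with spike-in scaling (-0.33), without control replicate A (-0.51) or with its probe sets averaged (0.71). The part of these differences in the results was not tested. Precision is limited by having 3 arrays a clone.

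The comparison of D20 with pU6-2 asks how transcripts of the acidification machinery and of the lysosomal proteases differ between the SDHB-silenced clone and its control. Members of both families moved in both directions. The largest rises were those of ATP6V1C2, an isoform of the V1 stator subunit C, of CTSH, an aminopeptidase, and of CTSV, a close relative of cathepsin L. The largest falls were those of CTSD, the main aspartic protease of lysosomes, CTSA, a serine carboxypeptidase, and ATP6V0A1, an isoform of the proton-conducting subunit a. A probe set was called at a limma p below 0.05 after adjustment by Benjamini-Hochberg across the 32768 probe sets that entered the fit. Probe sets were left out as too dim where the mean of log2(signal + 16) over all 6 arrays, turned back to a signal, lay below 43.2, so a gene with an uneven signal could be left out at a higher plain mean.

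Of the 23 V-ATPase genes 22 were tested, and 6 were called higher and 5 lower, together 50%. Of the 15 cathepsin genes 13 were tested, and 3 were called higher and 3 lower, together 46.2%. Across all 13781 genes tested by their brightest probe set 44.5% were called, 23.7% higher and 20.8% lower, so both shares lay near the background. A change of at least 2-fold was called for 1 V-ATPase gene and 3 cathepsin genes, against 17.3% of all genes. The median log2 fold change was 0.00 over the V-ATPase genes tested and 0.12 over the cathepsins, beside 0.04 over all genes tested. ATP6V1C2, ATP6V0D2 and CTSE passed the filter on low signal through the D20 arrays alone, with control levels of 8.7, 39.0 and 37.4 on its scale, so the counts are not those of all members. ATP6V1C2 is 1 of the 6 V-ATPase genes called higher and the only V-ATPase gene called with a change of at least 2-fold. Among all called probe sets the share higher in D20 was 53.5%, and it was 42.0% after median centring of the arrays and 75.7% after scaling on the poly-A spike-in controls. Spike-in scaling moved the median of all probe sets from 0.03 to 0.27, and with it the V-ATPase calls to 8 higher and 2 lower. Median centring gave 4 higher and 9 lower.

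**Figure D1:**
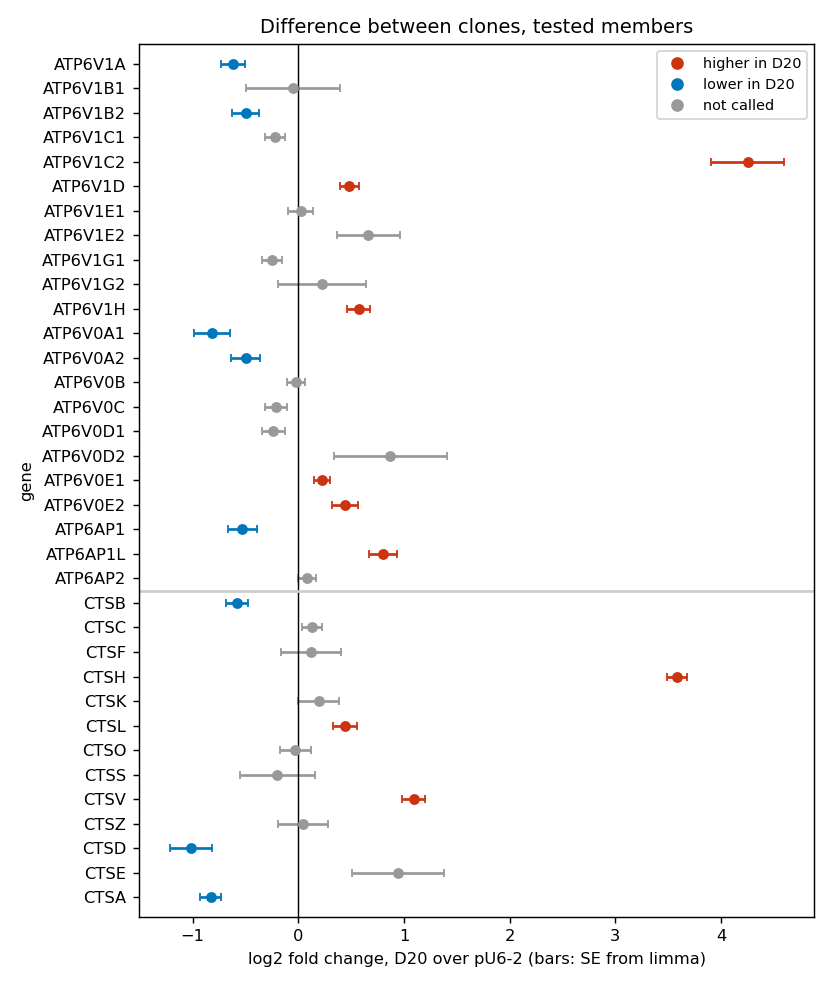
Log2 fold change of D20 over pU6-2 for the 22 V-ATPase genes (top) and 13 cathepsin genes (bottom) tested, by brightest probe set. Points are estimates, bars are standard errors from limma on 3 arrays a clone, and colour shows the call; ATP6V1C2 (4.25) and CTSH (3.58) stand far to the right, while most members lie within 1 log2 unit of 0.

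In the V1 sector, the subunits A and B form the catalytic ring. ATP6V1A, the catalytic subunit A, had signals of 7644.5, 6300.3 and 7156.7 on the control arrays A to C and of 3811.0, 4896.4 and 5045.4 on the D20 arrays. All 3 D20 arrays lay below all 3 control arrays. The gene fell by 0.62 on the log2 scale, with a standard error (SE) of 0.114 (adjusted p = 8.3e-04), and its second probe set had a log2 fold change of -0.26 that did not pass the test (adjusted p = 0.14). ATP6V1B2, the broadly expressed form of subunit B, fell by 0.50 (SE 0.126, adjusted p = 0.0074), from 1870.0 ± 232.0 (SD, n = 3) to 1319.4 ± 173.0. With spike-in scaling ATP6V1B2 was not called (-0.24, adjusted p = 0.22), nor without the variance trend (adjusted p = 0.06). ATP6V1B1, the form typical of renal intercalated cells, was dim, at 96.6 ± 57.5 in the control and 88.2 ± 32.8 in D20 (adjusted p = 0.94).

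Subunit C joins the catalytic ring to the membrane sector and is released when the pump disassembles. It is encoded by the broadly expressed ATP6V1C1 and the tissue-restricted ATP6V1C2. ATP6V1C2 had signals of 6.4, 7.5 and 12.8 on the control arrays and of 501.6, 463.0 and 401.1 on the D20 arrays. Every control array lay below the filter level of 43.2 and every D20 array far above it. ATP6V1C2 thus entered the test through its D20 arrays alone, and its difference is given as a value with no p-value. On the log2(signal + 16) scale the difference was 4.25 (SE 0.342). Because the control was so dim, its size depended on the added constant, at 5.57 with 1 and 2.83 with 64. The second probe set of ATP6V1C2 gave 4.10 (SE 0.381), from 5.97 to 357.6, again with every control array below the filter level. ATP6V1C1 stood at -0.22 on the log2 scale (adjusted p = 0.087) by its brightest probe set, with 2567.6 ± 131.0 in the control and 2203.9 ± 114.0 in D20. Among its 3 further probe sets 2 were called lower, at -0.26 (adjusted p = 0.038) and -0.36 (adjusted p = 0.032). The third was not called, at 0.24 (adjusted p = 0.21), with its D20 arrays above the control arrays.

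Subunit D belongs to the central rotor. ATP6V1D rose by 0.48 (SE 0.0892, adjusted p = 9.7e-04), from 2911.0 ± 104.0 to 4065.1 ± 289.0, and its next brightest probe set by 0.33 (adjusted p = 0.0082). Subunit H is a regulator that restrains ATP hydrolysis by detached V1. ATP6V1H had signals of 990.7, 1082.6 and 1051.0 in the control and 1413.7, 1666.9 and 1577.5 in D20, without overlap, a log2 fold change of 0.57 (SE 0.111, adjusted p = 0.0014). The other 2 probe sets of ATP6V1H were dim, at means between 42.6 and 90.3, with log2 fold changes of -0.20 and -0.13, and the mean of its probe sets gave 0.08 (adjusted p = 0.85).

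The peripheral stalks are built from subunits E and G. ATP6V1E1, the general form of E, differed by a log2 value of 0.02 (adjusted p = 0.93), with 6705.0 ± 493.0 and 6843.9 ± 1190.0. ATP6V1E2, a form typical of testis, stood at 112.7 ± 5.51 and 194.2 ± 66.8 (0.66, adjusted p = 0.1) and was called with spike-in scaling (0.89, adjusted p = 0.03). ATP6V1G1, the general form of G, differed by -0.25 (adjusted p = 0.058), its D20 arrays lying below the control arrays. Among the V-ATPase genes not called, ATP6V1G1 was closest to the threshold, and it passed in 5 alternatives, among them the fit without D20 replicate B (-0.35, adjusted p = 0.0051). ATP6V1G2, a neuronal form, stood at 64.7 and 80.7 (adjusted p = 0.73), and ATP6V1G3, a renal form, was too dim to test, at 62.4 ± 43.6 and 26.4 ± 39.7.

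**Figure D2:**
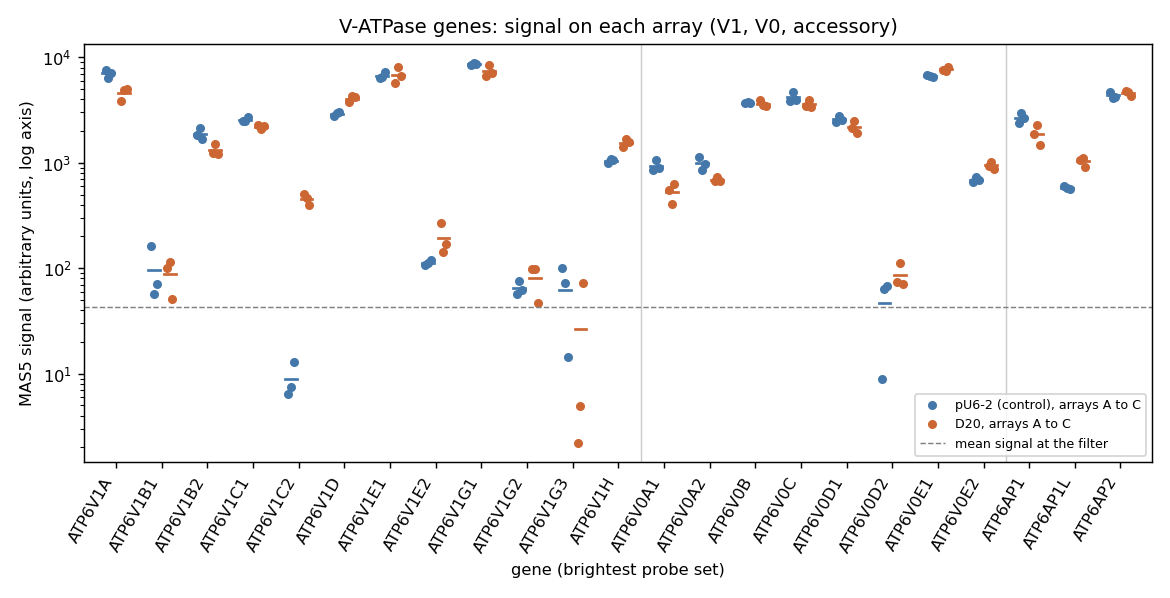
MAS5 signal (log axis) of the brightest probe set of each of the 23 V-ATPase genes on each array, with V1, V0 and accessory genes separated by grey lines. Blue points are the 3 pU6-2 arrays, orange points the 3 D20 arrays, short bars their means and the dashed line the mean signal at the filter (43.2); the wide gap at ATP6V1C2 separates 6.4 to 12.8 from 401.1 to 501.6, and levels of different genes cannot be compared.

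In the V0 sector, subunit a conducts protons, and its isoforms direct the pump to different membranes. ATP6V0A1 had signals of 861.4, 1056.7 and 893.1 in the control and 555.6, 409.4 and 629.6 in D20, again without overlap. It fell by 0.82 (SE 0.168, adjusted p = 0.0020), and a second probe set had -0.46 (adjusted p = 0.066). ATP6V0A2, the form found in endosomes and Golgi, fell by 0.50 (SE 0.136, adjusted p = 0.012), from 990.0 ± 140.0 to 693.4 ± 34.3. None of the other 4 tested probe sets of ATP6V0A2 was called. The call was lost with spike-in scaling (-0.24, adjusted p = 0.19), without control replicate A (-0.39, adjusted p = 0.068) and with the mean of its probe sets (-0.38, adjusted p = 0.2). It was also lost with the brightest probe set of ATP6V0A2 whose identifier ends in neither _x_at nor _s_at (-0.24, adjusted p = 0.25). TCIRG1, which encodes the a3 isoform of lysosomes and osteoclasts but lies outside the naming rule and was singled out after its value was seen, fell by 0.60 (SE 0.2, adjusted p = 0.033). That call was lost with spike-in scaling (adjusted p = 0.22), without the variance trend (0.16), without control replicate B (0.058), without control replicate C (0.13) and without D20 replicate C (-0.30, adjusted p = 0.088).

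The proteolipids of the rotating ring were not called. ATP6V0C, subunit c, differed by -0.21 (adjusted p = 0.13) and was called lower with median centring (-0.33, adjusted p = 0.023). ATP6V0B, subunit c'', differed by -0.02 (SE 0.0854, adjusted p = 0.87), with 3697.6 ± 40.8 in the control and 3644.9 ± 233.0 in D20. Subunit d couples the rotor to the ring. ATP6V0D1, its general form, had -0.24 (adjusted p = 0.11) and passed the test as lower with median centring (-0.36, adjusted p = 0.024) and with D20 replicate B left out (-0.34, adjusted p = 0.026). ATP6V0D2, a form known from osteoclasts and kidney, was dim, at 46.8 ± 32.9 and 85.8 ± 22.4, and was not called. It was tested only through the D20 arrays, so no p-value is given.

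Both genes of the small subunit e were called higher. ATP6V0E2 rose by 0.44 (SE 0.126, adjusted p = 0.014), from 687.8 ± 38.9 to 942.9 ± 71.1, and was not called with median centring (0.33, adjusted p = 0.081) or without control replicate A (0.41, adjusted p = 0.054). ATP6V0E1 rose by 0.22 (SE 0.0766, adjusted p = 0.041), from 6592.0 ± 157.0 to 7674.6 ± 330.0. That was the weakest call of either family, and 6 further probe sets of ATP6V0E1 were tested. Of these 1 was called lower, at -1.05 (SE 0.183, adjusted p = 5.5e-04), and 5 were not called, at log2 fold changes from -0.04 to 1.09. The mean of its probe sets gave 0.11 (adjusted p = 0.49), and the call of the brightest was also lost with no filter (0.074), median centring (0.4), no variance trend (0.18) and without control replicate A (0.083), B (0.087) or C (0.15) or D20 replicate C (0.13).

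The accessory proteins assist assembly and sorting of the pump. ATP6AP1, also called Ac45, had signals of 2390.4, 2978.6 and 2659.9 in the control and 1872.8, 2259.1 and 1486.7 in D20, all lower in D20. It fell by 0.53 (SE 0.141, adjusted p = 0.01). The call was lost with spike-in scaling (-0.27, adjusted p = 0.22) and without the variance trend, where the fold change was the same (adjusted p = 0.088). ATP6AP1L, its less studied relative, had 600.1, 581.1 and 566.0 in the control and 1060.0, 1110.3 and 920.6 in D20. It rose by 0.80 (SE 0.129, adjusted p = 3.1e-04), with no overlap between the clones. ATP6AP2, the prorenin receptor, had a log2 fold change of 0.08 (SE 0.0881, adjusted p = 0.51) and among the alternatives was called only with spike-in scaling (0.34, adjusted p = 0.016), which raised the median of all probe sets.

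**Figure D3:**
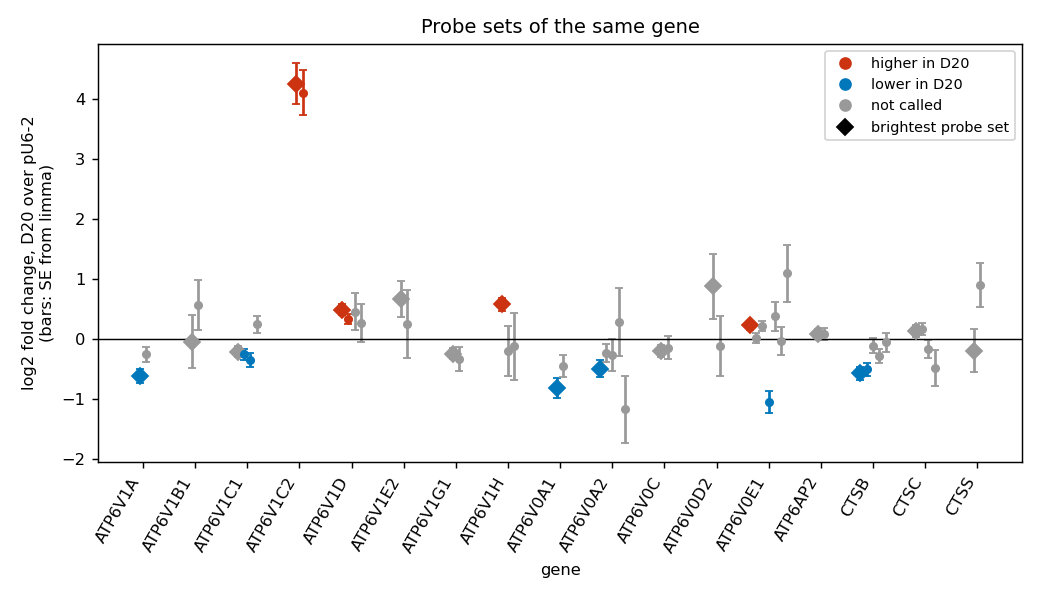
Log2 fold change of D20 over pU6-2 for every tested probe set of the members with more than 1 tested probe set, with bars for the standard error from limma. Diamonds mark the brightest probe set and colour the call; the probe sets of ATP6V1C2 (4.25 and 4.10) lie together, those of ATP6V0E1 include 1 called higher (0.22) and 1 called lower (-1.05), and for ATP6V1H only the brightest was called.

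Most cathepsins are cysteine proteases of the papain family. CTSH, an aminopeptidase that also acts on surfactant protein precursors in lung, had signals of 905.5, 1079.5 and 984.7 on the control arrays and 11320.5, 11808.2 and 12847.7 on the D20 arrays. Every D20 array was thus about an order of magnitude above every control array. The log2 fold change was 3.58 (SE 0.0954, adjusted p = 5.4e-11), which is 12.0-fold, and over the alternatives that gave a value it lay between 3.46 and 3.84. CTSH has a single probe set on the array, which is marked as able to match several transcripts.

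CTSV, also called cathepsin L2 and known from thymus, testis and skin, had 901.3, 916.8 and 986.5 in the control and 1808.5, 2149.4 and 2057.7 in D20. The clones did not overlap. CTSV rose by 1.09 (SE 0.11, adjusted p = 6.3e-06), or 2.12-fold. CTSL, the ubiquitous endopeptidase most like it, rose by 0.44 (SE 0.116, adjusted p = 0.0094), from 828.7 ± 15.2 to 1130.1 ± 75.7, and was not called with median centring (0.32, adjusted p = 0.073).

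CTSB, an endopeptidase and dipeptidyl carboxypeptidase often studied in tumour invasion, had 3296.0, 3599.5 and 3571.0 in the control and 2516.6, 2478.8 and 2022.0 in D20. It fell by 0.58 (SE 0.104, adjusted p = 7.1e-04) and was not called with spike-in scaling (-0.32, adjusted p = 0.062). Of its 4 other probe sets 1 was called lower too, at -0.51 (adjusted p = 0.0018), and 3 were not called, at -0.06 to -0.29. CTSC, the dipeptidyl peptidase that activates granule proteases of leukocytes, had a log2 fold change of 0.13 (SE 0.0958, adjusted p = 0.31), with 5194.9 ± 157.0 and 5728.8 ± 681.0. It was called higher with spike-in scaling (0.39, adjusted p = 0.013) and without D20 replicate A (0.23, adjusted p = 0.046).

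The remaining cysteine cathepsins were not called, and the arrays of their brightest probe sets overlapped between the clones. CTSK, the collagenase of osteoclasts, differed by 0.19 (SE 0.197, adjusted p = 0.5). CTSO had -0.03 (adjusted p = 0.92), CTSF 0.12 (adjusted p = 0.78) and CTSZ, a carboxypeptidase, 0.04 (adjusted p = 0.91). CTSS, which trims the invariant chain in antigen-presenting cells, was dim, at 150.0 ± 16.4 and 140.2 ± 77.9 (adjusted p = 0.71). The other tested probe set of CTSS went from 102.6 to 191.4 with its D20 arrays above the control arrays (0.90, adjusted p = 0.075), which did not pass the test. CTSW, a protease of cytotoxic lymphocytes, was too dim to test, at 12.8 ± 5.04 and 7.53 ± 0.551.

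The aspartic cathepsins are CTSD and CTSE. CTSD had signals of 1044.0, 1329.3 and 989.9 on the control arrays and 670.7, 621.2 and 377.9 on the D20 arrays, the last being the lowest. It fell by 1.02 (SE 0.2, adjusted p = 0.0014), or 2.03-fold, and by 0.77 without D20 replicate C (adjusted p = 0.0029). CTSE, known from stomach and immune cells, was dim, at 38.0 ± 9.64 in the control and 87.7 ± 19.8 in D20 (0.94), and was not called. It was among the genes tested only through the D20 arrays, so its difference is given with no p-value.

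The serine cathepsins are CTSA and CTSG. CTSA, a carboxypeptidase that also stabilises the sialidase NEU1 and beta-galactosidase in a complex, had 6195.2, 6988.1 and 6176.3 in the control and 3749.0, 3968.3 and 3159.3 in D20. All D20 arrays were lower, and CTSA fell by 0.83 (SE 0.1, adjusted p = 2.8e-05). NEU1, named here for this complex and outside the rule for list genes, fell by 0.88 (SE 0.0821, adjusted p = 2.9e-06), from 8141.5 to 4411.8. It is 1 of 29 tested genes in the list of other lysosomal hydrolases and activators. Of these 7 were higher and 9 lower, beside 23.7% and 20.8% of all genes, so its fall is not read as a result about the complex. CTSG, a protease of neutrophil granules, was too dim to test, at 18.3 ± 16.7 and 25.7 ± 12.9.

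**Figure D4:**
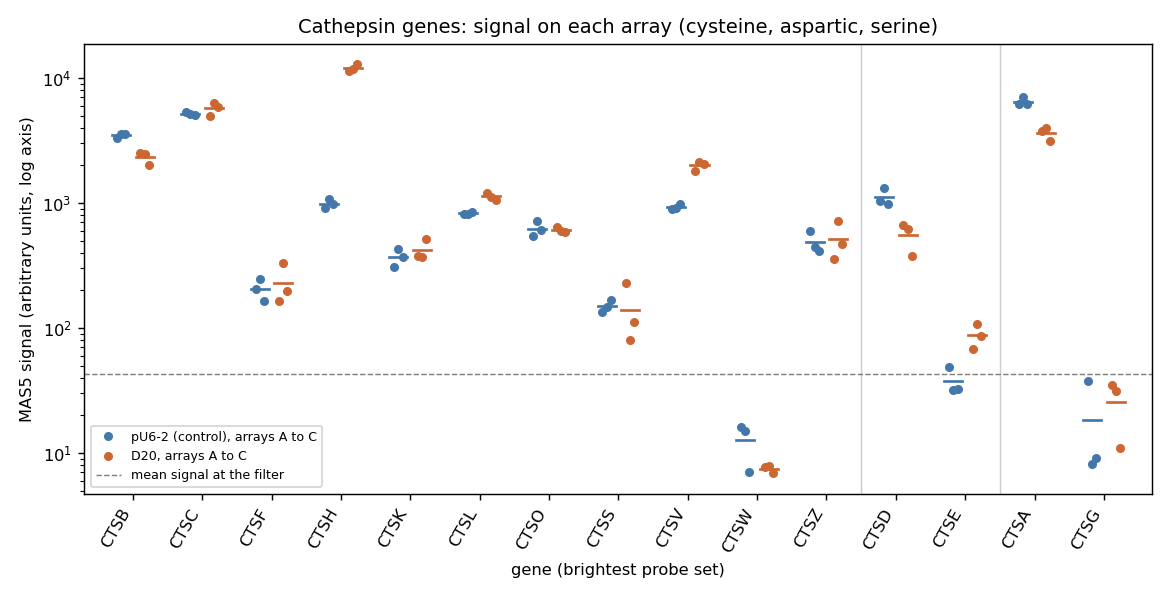
MAS5 signal (log axis) of the brightest probe set of each of the 15 cathepsin genes on each array, with cysteine, aspartic and serine proteases separated by grey lines. Blue points are the 3 pU6-2 arrays, orange points the 3 D20 arrays, short bars their means and the dashed line the mean signal at the filter (43.2); CTSH stands at 905.5 to 1079.5 in the control and 11320.5 to 12847.7 in D20, while CTSA, CTSB and CTSD are lower in D20.

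Other genes of the pathway were taken from lists chosen by role, and their counts are read beside the 23.7% of all genes called higher and the 20.8% called lower. Among genes of V-ATPase assembly and regulation, 6 of 14 tested were called higher and 2 lower, with a median log2 fold change of 0.32. SNX10, a sorting nexin that binds the pump in osteoclasts, rose by 1.81 (SE 0.108, adjusted p = 5.4e-08), from 705.2 to 2516.9. NCOA7, whose TLDc domain binds V1, rose by 1.65 (adjusted p = 2.4e-08). DMXL2 (1.12) and DMXL1 (0.98), the rabconnectins that reassemble V1 with V0, rose as well, the second not with the mean of its probe sets (0.23, adjusted p = 0.51). OXR1, another TLDc protein of this list, named after its values were seen, rose by 0.81 (adjusted p = 0.0014). It had 0.09 with its probe sets averaged and was called lower without probe sets marked _x_at or _s_at (-1.94, adjusted p = 2.5e-04). With spike-in scaling 6 genes of this list were higher and none lower, and with median centring 5 were higher and 3 lower.

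Among lysosomal membrane proteins 5 of 24 tested were called higher and 10 lower, with a median of -0.22. The calcium and sodium channel gene TPCN2 (-1.71), GLMP (-1.50), which protects a lysosomal transporter from degradation, and the cystine exporter CTNS (-1.06) fell. SCARB2, the receptor that carries glucocerebrosidase to lysosomes, rose by 0.99 (SE 0.0911, adjusted p = 2.6e-06). With spike-in scaling the split turned to 10 higher and 6 lower. Among lysosomal hydrolases other than cathepsins and their activators 7 of 29 were higher and 9 lower. The acid phosphatase ACP2 (-1.79), the arylsulfatase ARSB (-1.71) and the tripeptidyl peptidase TPP1 (-1.16) fell, and the glucuronidase GUSB rose (1.20). With spike-in scaling 14 were higher and 5 lower.

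Of 15 named inhibitors of cathepsins and other proteases only 8 were bright enough to test, and 3 of these were called lower and none higher. They were SERPINB1 (-1.10), an inhibitor of granule proteases including cathepsin G, the extracellular cystatin CST3 (-0.77), which was not called with the mean of its probe sets (-0.26, adjusted p = 0.3), and SERPINA3 (-0.39). SERPINA3 was not called with spike-in scaling (-0.13, adjusted p = 0.47), without the variance trend (0.1), or without control replicate A (0.16) or C (0.11) or D20 replicate A (0.11) or B (0.078). In enzyme sorting 6 of 16 genes were higher and 3 lower, among them SCARB2 (0.99), SORL1 (0.95), GGA1 (-0.66) and AP1G1 (-0.57). The last of these was not called with spike-in scaling (-0.31, adjusted p = 0.094) or when its probe sets were averaged (-0.13, adjusted p = 0.38). IGF2R, the receptor for mannose 6-phosphate, named after its values were seen, rose by 0.31 (adjusted p = 0.02). It was called lower without probe sets marked _x_at or _s_at (-1.18, adjusted p = 0.03), and it was not called with its probe sets averaged (0.06), with median centring (0.19), without the variance trend (0.31), or without control replicate B (0.28) or C (0.31) or D20 replicate C (0.23). With median centring 3 genes of the list were higher and 4 lower.

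Among TFEB-family factors and the lysosomal mTORC1 machinery 2 of 19 tested were higher and 5 lower. FNIP2, a partner of folliculin, fell by 2.05 (SE 0.0897, adjusted p = 3.6e-09), from 7278.1 to 1741.1. RHEB, the GTPase that activates mTORC1, and LAMTOR4, of its lysosomal anchor, each fell by 0.67, and MTOR rose by 0.82. TFEB, singled out after its value was seen, fell by 0.54 (SE 0.174, adjusted p = 0.027). It was not called with spike-in scaling (-0.29, adjusted p = 0.26), without the variance trend (0.13), without control replicate B (-0.36, adjusted p = 0.12) or without D20 replicate C (-0.39, adjusted p = 0.11). With spike-in scaling 4 genes of the list were higher and 3 lower. Among autophagy genes 6 of 28 were higher and 8 lower, with SQSTM1 (-1.26), the cargo receptor p62, ATG13 (-1.12) and STX17 (-0.89) lower and ATG16L1 (1.00) higher. SQSTM1 was not called without probe sets marked _x_at or _s_at (-0.22, adjusted p = 0.27). With spike-in scaling 14 autophagy genes were higher and 4 lower, and with median centring 3 and 8.

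**Figure D5:**
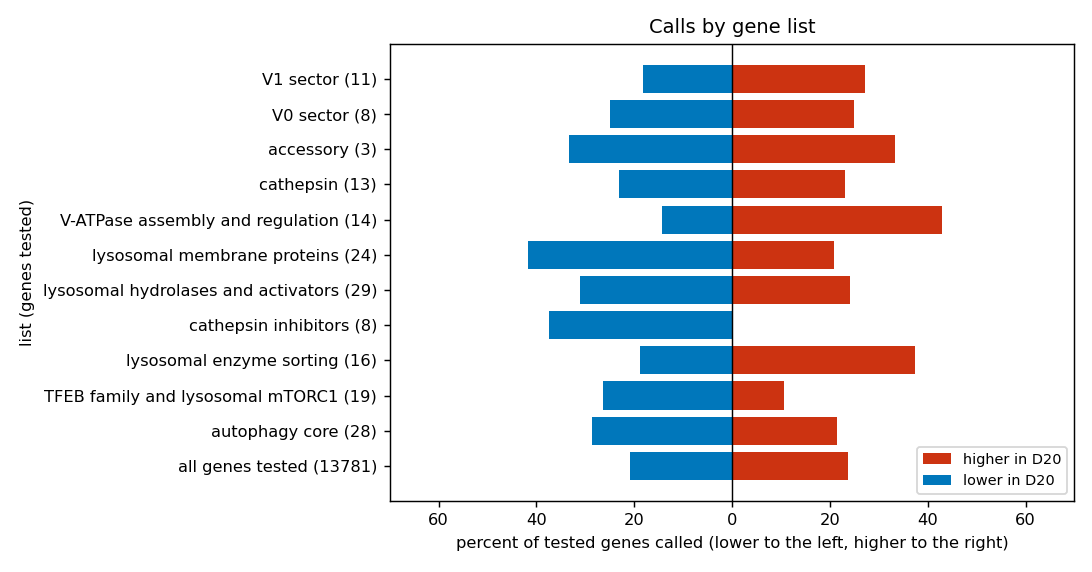
Percent of tested genes called lower (left, blue) and higher (right, red) in D20 for the V1, V0, accessory and cathepsin groups, for 7 further lists of the pathway and for all genes tested, with the number of genes tested in parentheses. Across all genes 20.8% were lower and 23.7% higher, and both V-ATPase sectors and the cathepsins have calls on both sides.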

How the data were processed

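Each of 6 RNA samples was measured on an HG-U133 Plus 2.0 array (Affymetrix). What was deposited is a table of linear intensity values, made with MAS5 per the submitters' processing notes; its version is not given in the sources used here, and the file gives no detection calls. Probe sets with 1 gene in GEO's platform annotation (41091 of 54675) were named, 41037 of them with the current RefSeq symbol. Signals became log2(signal + 16), which understates changes of dim genes. The 62 control probe sets and the dimmest 40% of the others (21845) were left out, and 32768 were tested with limma 3.58.1 in R 4.3.3 (eBayes with a variance trend, two-sided, Benjamini-Hochberg, threshold 0.05). The fit was tested on simulated data. The members, lists and rule for named genes were chosen with earlier results of these data known. Signals of each array are given for called members that changed by at least 0.5 on the log2 scale without overlap, and up to 4 called genes for each other list. The motif GTCACGTG was added after the promoters were searched. Promoters come from RefSeq. Alternatives were other pseudocounts (1, 64), filters (none, 60%), quantile normalization, median centring, scaling on 12 poly-A control probe sets, no variance trend, the replicate block, leaving out each array, averaging the probe sets of a gene, and probe sets whose identifiers end in neither _x_at nor _s_at, marks of probes that can match several transcripts.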

Additional observations from a re-analysis of the deposited data

How the results depend on the processing

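Of 35 members tested in 17 alternatives, 9 of the 17 called kept call and direction wherever a value could be had: ATP6AP1L, ATP6V0A1, ATP6V1A, ATP6V1C2, ATP6V1D, CTSA, CTSD, CTSH and CTSV. The other 8 lost the call in at least 1, and 8 members not called were called in at least 1. ATP6V1C2, among the 9, was tested through its D20 arrays alone, so its kept call is not read as support. ATP6V1H turned to -0.13 without probe sets marked _x_at or _s_at (limma adjusted p = 0.89); its only such probe set was dim. In that setting 3 V-ATPase genes were higher and 3 lower, 1 cathepsin was higher, and the cathepsin median was -0.20; genes with no such probe set, among them CTSH, dropped out.

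Median centring gave 9 V-ATPase genes lower, a V-ATPase median of -0.12 and a cathepsin median of 0.00. Spike-in scaling gave 2 V-ATPase genes lower and medians of 0.26 and 0.36. Quantile normalization gave a cathepsin median of -0.01, and no variance trend 3 V-ATPase genes lower. Leaving out single arrays moved the cathepsin median from -0.02 to 0.26. With the replicate block 7 V-ATPase genes were lower, 6 higher and 12557 probe sets called, against 11952 without it; ATP6V0C (adjusted p = 0.046) and ATP6V1G1 (0.025) were added. Deviations of same-lettered arrays correlated at -0.0213 (A), 0.0519 (B) and 0.0074 (C). Dim members near the filter had wide errors.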

Other observations

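Of the non-coding genes whose symbols match the rule, ATP6AP1-DT, the divergent transcript of ATP6AP1 by its symbol, rose by 0.53 (SE 0.133, limma adjusted p = 0.0068), from 603.0 ± 45.2 (SD, n = 3) to 879.5 ± 69.3, while ATP6AP1 fell by 0.53. They are neighbours on the X chromosome in RefSeq. ATP6V0E2-AS1, antisense to ATP6V0E2, was too dim to test, at 19.3 ± 17.3 and 89.9 ± 55.8.

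The members lie scattered over the genome, and each was set beside its 20 nearest tested neighbours in RefSeq order. The median log2 fold change of the neighbours was 0.18 for ATP6V1C2, 0.02 for CTSH, 0.02 for CTSA and 0.17 for ATP6V0A1, and -0.27 for CTSV, which itself rose. The neighbours of CTSD had a median of -0.28, in the direction of its own fall, and those of ATP6V0E1 had 0.51, in the direction of its rise. The neighbours of CTSF had -0.62 while CTSF had 0.12. Whether such stretches bear on the members' values was not tested.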
